A study of Homo sapiens with 4 samples.

Results

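The genes described here encode 44 proteins of ribosome biogenesis and the nucleolus, taken from the 63677 genes of the count table as the rows whose Ensembl identifier maps to each gene symbol. Of the 44, 43 passed the filter on low counts and were tested together with all other genes (15116 in total). The remaining gene, BOP1 (a pre-60S factor), is listed at 0 in every library under the identifier that carries its symbol in GENCODE 44, and it was not tested. Its reads may be counted under another identifier in the older annotation the authors used, which was not examined, so the 0 is not a level of BOP1. RNA was sequenced from HCT116 cells, a human colorectal cancer line, transfected with an antisense oligonucleotide (ASO) directed at GAA repeats or with a control ASO, in 2 libraries per condition. No untreated library was analysed here, so every comparison is between the 2 ASOs. The labels number the libraries 1 and 2 in both conditions (232 and 234 in the titles) without saying what the number stands for, and the study's methods speak of duplicate experiments, so p-values measure the spread between these libraries. The labels give a transfection of 48 h and a kit for total RNA, whereas the study's methods give a shorter transfection and a stranded mRNA kit. Counts summed to 10538284 and 17894953 in anti-GAA replicates 1 and 2, and to 15347298 and 15924742 in control replicates 1 and 2.

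Ribosomes are built in the nucleolus, where RNA polymerase I transcribes the long precursor of the ribosomal RNAs. Box C/D and H/ACA ribonucleoproteins, guided by small nucleolar RNAs (snoRNAs), methylate and pseudouridylate this precursor. The small subunit processome folds and cleaves its 5′ part, a chain of pre-60S particles matures the large subunit, and acidic proteins such as nucleolin and nucleophosmin fill the nucleolus and act as chaperones. Proliferating cancer cells such as HCT116 keep the pathway highly active.

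All 5 epithelial markers were detected in every library. EPCAM, the epithelial cell adhesion molecule, stood at 641 and 628 CPM (TMM-scaled counts per 1000000 counts) in anti-GAA replicates 1 and 2 and at 740 and 729 in control replicates 1 and 2, the order in which values are given throughout. Of the keratins, KRT19 was at 1327 and 1639 against 1114 and 1366 CPM, KRT8 at 325 and 261 against 358 and 350 CPM, and KRT18 at 224 and 308 against 389 and 388 CPM. CDH1 (E-cadherin) was the least abundant, at 34.7 and 48.0 against 48.4 and 60.7 CPM. Both anti-GAA libraries lay below both control libraries for EPCAM, KRT8, KRT18 and CDH1, as they did for 16.9% of all tested genes. The furthest of the 5 markers was KRT18 (log2 fold change −0.54 ± 0.22, SE, adjusted p = 0.996 in edgeR's quasi-likelihood test). With the replicate number as a block the adjusted p of KRT18 was 0.0853, and with length and GC offsets besides it was 0.0446, which passed the threshold of 0.05. In the fit without the block, its log2 fold change was −0.32 without anti-GAA replicate 1 and −0.79 without anti-GAA replicate 2. The part of these differences in the other results was not tested. Among blood markers, CD3E and LYZ were listed at 0, and PTPRC did not exceed 0.281 CPM. Of the fibroblast and endothelial markers, COL1A2 and PECAM1 were listed at 0, and COL1A1 was the most abundant, between 10.1 and 14.6 CPM.

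The anti-GAA ASO can pair with runs of GAA, which lie in the coding sequence of several of these genes. It is 21 nt long, with 9 DNA nucleotides (capitals) between 2′-O-methoxyethyl wings of 6 nt on either side (lower case).
anti-GAA ASO: ttcttcTTCTTCTTCttcttc
Perfect runs of GAA in any frame were searched on the RNA strand of the MANE Select transcript, the reference transcript agreed by Ensembl and RefSeq, and 6 of the 44 genes held a run of at least 12 nt. The windows of 30 nt below show these 6 runs, and those of DDX27 and POLR1G, a pre-60S helicase and an RNA polymerase I subunit outside the 44, with the run in capitals and written as DNA.
DKC1: caccAAGAAGAAGAAGAAGAAGAAGAAagc
RRP1B: gaagaagGAAGAAGAAGAAGAAGcaccacc
TCOF1: ccaggagcAAGAAGAAGAAGAAGctggggg
NOP58: acatctgtGAAGAAGAAGAAGAAaaggggt
DDX10: aagaacagGAAGAAGAAGAAGAcgatgaag
UBTF: agcttccggAGAAGAAGAAGAtgaaatata
DDX27: ggatcgGAAGAAGAAGAAGAAGAAaggaca
POLR1G: ccaccAAGAAGAAGAAGAAGAAGAAagaga
All 8 runs are coding. On GRCh38, the run of DKC1 spans 23 nt at chrX:154776814-154776836 on the plus strand, in exon 15 of 15, and it alone among the 44 genes holds the whole 21-nt target. With mismatches allowed, the best ungapped match was 19 of 21 nt in TCOF1, NOP58 and DDX10 and 17 in UBTF. It was 18 in RRP1B and in UTP18, whose longest perfect run is 8 nt. In TCOF1 and NOP58 the best match lies outside the printed run. The runs of RRP1B (16 nt, exon 13 of 16, chr21:43687577-43687592), TCOF1 (15 nt, exon 24 of 27, chr5:150396584-150396598), NOP58 (15 nt, exon 14 of 15, chr2:202302970-202302984) and DDX10 (14 nt, exon 13 of 18, chr11:108723244-108723257) lie on the plus strand, each within a single exon. The run of UBTF (12 nt) forms only on splicing of exons 5 and 6 on the minus strand of chromosome 17. Outside the 44, DDX27 holds 18 nt in exon 5 of 21 (chr20:49224967-49224984) and POLR1G 20 nt in exon 3 of 3 (chr19:45409232-45409251), both on the plus strand. Of the 6 members' runs, 5 are read as AAG (lysine) codons and 1, in DDX10, as GAA (glutamate) codons. The longest acidic tracts were those of NCL (38 consecutive aspartate or glutamate codons), UBTF (21 codons) and NPM1 (20 codons), and the longest GAA runs of these genes were 10, 12 and 6 nt.

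With the anti-GAA ASO, none of the 43 tested genes differed from the control ASO at an adjusted p under 0.05 (edgeR's quasi-likelihood test, Benjamini-Hochberg adjustment over all 15116 genes). The same fit called 0% of all tested genes lower and 0% higher, and DESeq2 called 5 genes lower and 0 higher, none of them among the 43. At an unadjusted p under 0.05, 0 of the 43 were lower and 1 was higher, beside 3.46% and 1.02% of all tested genes. The log2 fold changes of the 43 ran from −0.51 to 0.51, 19 below and 24 above 0, with a median of 0.07 against 0.01 over all tested genes. The median standard error (SE) was 0.24, and 32 of the 43 values lay within 1 SE of 0. In bulk RNA, fewer cells with an RNA and less of it per cell cannot be told apart. When counts were scaled to library totals in place of TMM, the median was −0.02 beside −0.08 for all tested genes.

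**Figure D1:**
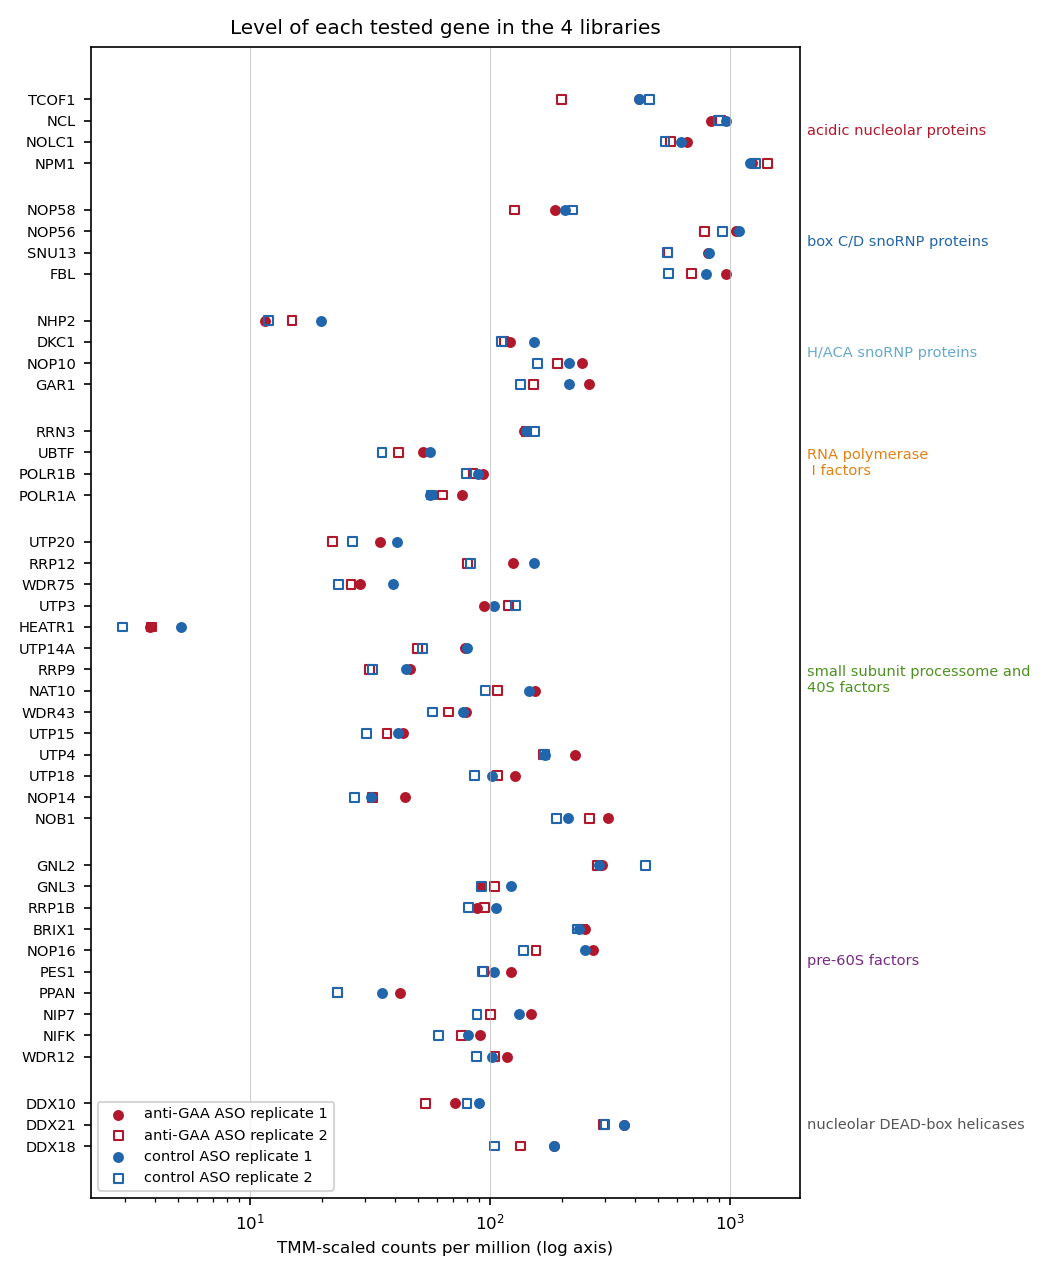
TMM-scaled CPM (log axis) of the 43 tested genes in each of the 4 libraries, grouped by role and ordered by log2 fold change within a role. Red stands for the anti-GAA ASO and blue for the control ASO, filled circles for replicate 1 and open squares for replicate 2; NPM1 is at the top of the range (1216 to 1439 CPM) and HEATR1 at the bottom (2.95 to 5.15 CPM).

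The acidic nucleolar proteins were among the most abundant of these RNAs. NCL (nucleolin, which binds the ribosomal RNA precursor) was at 830 and 916 CPM with anti-GAA and at 963 and 897 CPM with control. NPM1 (nucleophosmin, a histone and ribosome chaperone) was at 1236 and 1439 against 1216 and 1278 CPM. NOLC1, a scaffold that shuttles snoRNPs, was at 663 and 566 against 625 and 536 CPM. The libraries of the 2 conditions overlapped for all 3 genes, with log2 fold changes of −0.09 ± 0.19, 0.10 ± 0.20 and 0.08 ± 0.20 (± SE). TCOF1 (treacle, a cofactor of RNA polymerase I transcription) was at 417 and 199 CPM with anti-GAA and at 416 and 464 CPM with control. A single library thus stood apart from the other 3, and the log2 fold change of −0.51 ± 0.34 (adjusted p = 0.996) rested on it: within pairs of equal number the difference was 0.00 and −1.22 in log2 CPM, and without that library the log2 fold change of TCOF1 was −0.072.

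The box C/D proteins did not share a direction. FBL (fibrillarin, the methyltransferase) was at 959 and 692 CPM with anti-GAA against 794 and 556 with control, or a log2 fold change of 0.29 ± 0.26. NOP56 was at 1058 and 783 against 1090 and 928 CPM, or −0.13 ± 0.23. SNU13, which binds the kink-turn of the snoRNA, was nearly equal, at 810 and 552 against 816 and 551 CPM. NOP56 and NOP58 are paired core proteins of the particle, yet NOP58 was further from 0: it was at 186 and 127 CPM with anti-GAA and at 206 and 221 CPM with control. Its libraries did not overlap between conditions, and its log2 fold change was −0.45 ± 0.24 (adjusted p = 0.996). Most of the difference lay in pair 2 (−0.80, against −0.15 in pair 1), and the log2 fold change of NOP58 was −0.20 without anti-GAA replicate 2 and −0.75 without anti-GAA replicate 1.

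Among the H/ACA proteins, DKC1 (dyskerin, the pseudouridine synthase) carries the longest GAA run of the 44 genes. It was at 121 and 114 CPM with anti-GAA and at 152 and 111 CPM with control, and the conditions overlapped (log2 fold change −0.16 ± 0.22, adjusted p = 0.996). The pairs went opposite ways, with −0.33 for number 1 and 0.04 for number 2. NOP10 was at 242 and 191 against 214 and 157 CPM, and GAR1 at 260 and 151 against 214 and 134 CPM, for log2 fold changes of 0.22 ± 0.24 and 0.24 ± 0.33. Both core proteins had higher values with the anti-GAA ASO in each pair, although replicate 1 lay above replicate 2 in both conditions by more than the ASOs differed. NHP2 was low, at 11.5 and 14.9 against 19.8 and 11.9 CPM, and its value is uncertain: a copy, NHP2P1, took 559 counts beside 885 on NHP2, and the gene overlaps RMND5B on the other strand.

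Of the RNA polymerase I factors, 3 overlapped between conditions and POLR1A did not. POLR1A (the largest subunit) was at 76.7 and 63.4 CPM with anti-GAA and at 56.4 and 56.8 CPM with control. Its log2 fold change of 0.31 ± 0.20 did not pass the test (adjusted p = 0.996), and it ran from 0.17 to 0.44 when 1 library was left out. POLR1B, the second-largest subunit, was at 93.6 and 84.9 against 89.5 and 80.0 CPM. RRN3, the initiation factor that links the polymerase to its promoter, was at 139 and 142 against 142 and 153 CPM. UBTF, which organises ribosomal DNA chromatin, was at 52.4 and 41.5 against 56.3 and 35.4 CPM. The log2 fold changes of these 3 genes were 0.07, −0.07 and 0.03, each smaller than its SE.

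Of the 14 small subunit processome and 40S factors, 8 had log2 fold changes above 0 and 6 below. NOB1 (ENSG00000141101, chr16:69741871-69754926), the endonuclease that makes the 3′ end of 18S rRNA, was the only gene of the 43 with an unadjusted p under 0.05. It was at 312 and 260 CPM with anti-GAA and at 210 and 189 CPM with control. Both anti-GAA libraries lay above both control libraries, with a log2 fold change of 0.51 ± 0.20 (adjusted p = 0.996). UTP18 (128 and 107 against 102 and 86.0 CPM) and NOP14 (44.05 and 32.3 against 31.9 and 27.2 CPM), components of the processome, were likewise apart in all libraries, at 0.32 ± 0.21 and 0.37 ± 0.24. Without anti-GAA replicate 1 UTP18 was at 0.20 and NOP14 at 0.14, and without anti-GAA replicate 2 they were at 0.45 and 0.58. The lowest value was that of UTP20, a large repeat protein, at 34.8 and 22.0 against 40.8 and 26.7 CPM (−0.26 ± 0.31). Runs of 9 nt or more on the longest transcript were also held by UTP3, UTP14A, UTP15, WDR43, WDR75, HEATR1 and RRP12, all of them processome components or 40S maturation factors. UTP3 was at 94.6 and 119 against 104 and 128 CPM (−0.11 ± 0.22), UTP14A at 78.8 and 49.9 against 80.5 and 52.3 CPM (−0.05 ± 0.31) and UTP15 at 43.3 and 37.2 against 41.4 and 30.6 CPM (0.16 ± 0.24). WDR43 was at 79.6 and 67.3 against 77.5 and 57.8 CPM (0.12 ± 0.23), WDR75 at 28.6 and 26.4 against 39.3 and 23.4 CPM (−0.19 ± 0.28) and RRP12 at 125 and 80.8 against 152 and 83.03 CPM (−0.19 ± 0.34). The libraries of the 2 conditions overlapped for each of these 7 genes. HEATR1 was at 3.84 and 3.88 against 5.15 and 2.95 CPM (−0.07 ± 0.39), and it had few counts, which limits its precision, and overlaps LGALS8 on the other strand.

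Of the 10 tested pre-60S factors, 7 had log2 fold changes above 0. GNL2, a nucleolar GTPase, was lowest at −0.35 ± 0.25, with 294 and 281 CPM against 285 and 446 CPM. Here a single control library stood above the other 3. WDR12, a partner of PES1 and BOP1 in the PeBoW complex, was highest at 0.23 ± 0.20, with 118 and 105 against 102 and 87.7 CPM. RRP1B, with a GAA run of 16 nt, was at 88.3 and 95.1 against 105 and 81.6 CPM and differed by −0.03 ± 0.21. PES1 and NIFK also hold runs of 9 nt or more on the longest transcript. PES1 was at 122 and 94.2 against 104 and 93.2 CPM (0.13 ± 0.21) and NIFK at 90.8 and 76.0 against 80.9 and 61.2 CPM (0.23 ± 0.23), and both overlapped between conditions. Of the 3 DEAD-box helicases, DDX21 (361 and 296 against 363 and 301 CPM) and DDX18 (185 and 134 against 185 and 104 CPM) overlapped between conditions, with log2 fold changes of −0.02 ± 0.21 and 0.14 ± 0.31. DDX10 was at 71.6 and 53.7 CPM with anti-GAA and at 90.1 and 80.2 CPM with control. It did not overlap, and its log2 fold change was −0.44 ± 0.22 (adjusted p = 0.996).

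**Figure D2:**
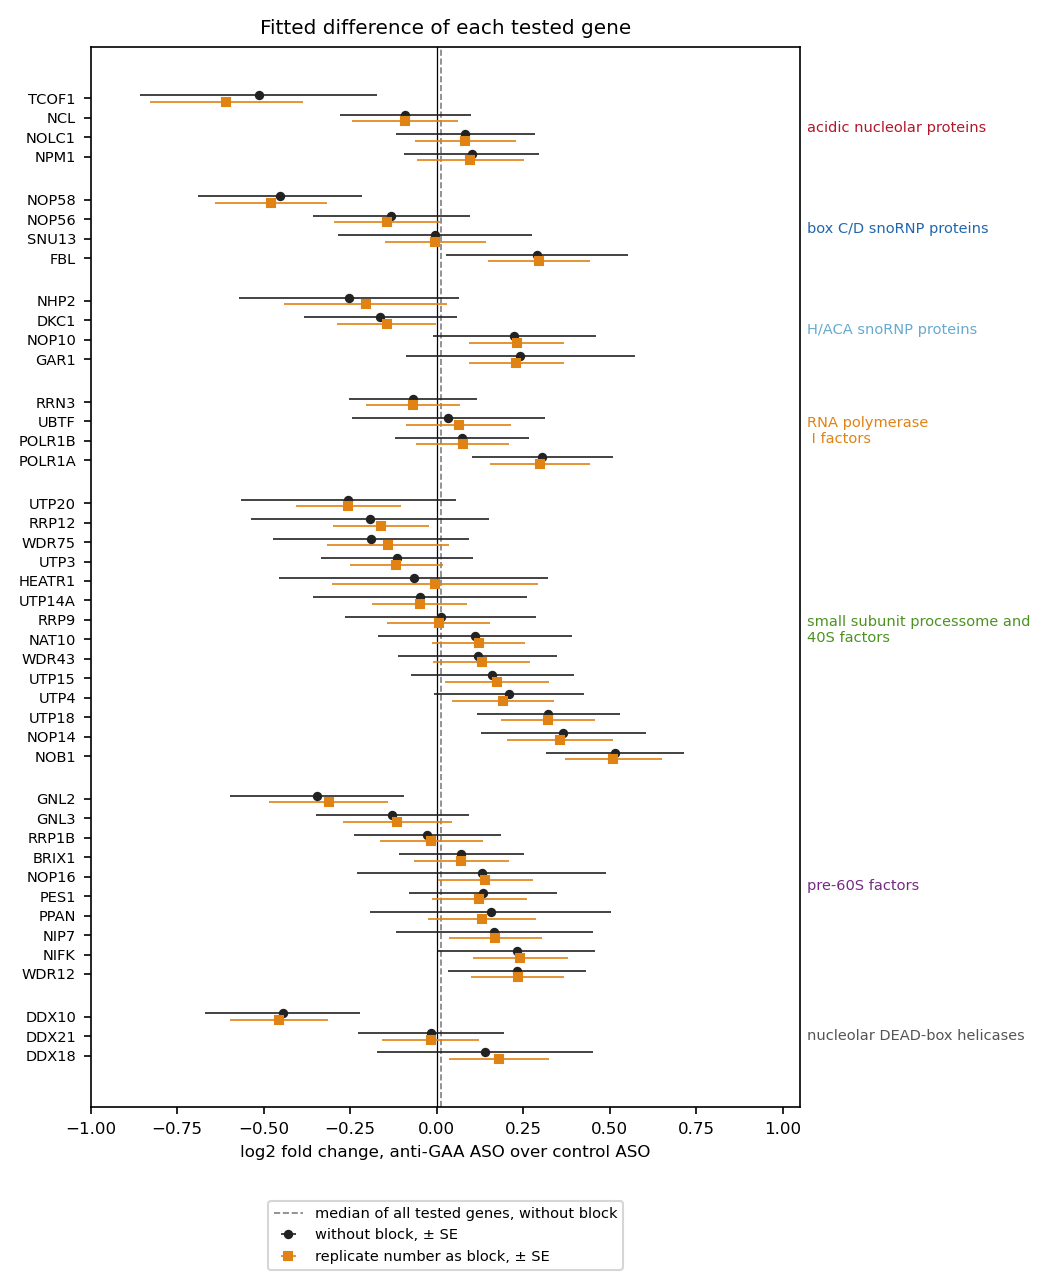
Log2 fold change of each of the 43 tested genes, anti-GAA ASO over control ASO, with bars of 1 SE. Black circles are the fit without a block and orange squares the fit with the replicate number as a block, the dashed line marks the median of all tested genes (0.01), and the values run from −0.51 (TCOF1) to 0.51 (NOB1) without the block.

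Most of these genes also differed between the libraries numbered 1 and 2. In 31 of the 43, replicate 1 was above replicate 2 in both conditions, and in 3 (NPM1, RRN3 and UTP3) replicate 2 was above replicate 1 in both. Over all tested genes, 33.8% had replicate 1 above replicate 2 in both conditions. The same held for 97 of 127 other genes of the pathway (76.4%), so it was not particular to the members. The median difference between replicates 1 and 2 in log2 CPM was 0.28 in the anti-GAA libraries and 0.40 in the control libraries. It was 0.42 and 0.31 over the other pathway genes, and −0.02 and 0.00 over all tested genes. A fit with the number as a block takes this difference between replicates out, and it lowered the median SE of the 43 genes from 0.24 to 0.14. Over all tested genes the median SE fell from 0.29 to 0.19. The fit with the block left 1 residual degree of freedom, against 2 without it, which limits how far its SEs and p-values can be relied on. In that fit 0 of the 43 passed the adjusted threshold, beside 1.37% of all tested genes called lower and 0.337% called higher. At an unadjusted p under 0.05, 3 were lower (DDX10, NOP58 and TCOF1) and 3 higher (NOB1, UTP18 and NOP14), beside 9.7% and 6.86% of all tested genes. NOB1 came nearest to the threshold with the block (log2 fold change 0.51 ± 0.14, adjusted p = 0.0826), followed by DDX10 (−0.46 ± 0.14, adjusted p = 0.123).

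Within pairs of equal number, 20 of the 43 genes were higher with the anti-GAA ASO in both pairs, 9 were lower in both and 14 went opposite ways. Over all tested genes, 31.8% were higher and 30% lower in both pairs. In 6 genes both anti-GAA libraries were above both control libraries (POLR1A, NOP14, NOB1, UTP18, WDR12 and BRIX1), beside 15.5% of all tested genes, and in 2 both were below (NOP58 and DDX10), beside 16.9%. The median difference was 0.04 in pair 1 and 0.16 in pair 2.

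GAA runs and fold changes were set side by side for the tested genes with a MANE Select transcript. Of the 6 members with a run of at least 12 nt, 5 had log2 fold changes below 0, with a median of −0.30, whereas the 21 members with runs under 9 nt had a median of 0.16, 6 of them below 0. Over all tested genes the same classes gave medians of −0.15 (358 genes, 71.5% below 0) and 0.03 (9388 genes, 45.2% below 0). With scaling to library totals these 2 medians were −0.24 (81.8% below 0) and −0.061 (59.3% below 0). Without 1 library they ran from −0.23 to −0.15 and from 0.0045 to 0.039. Single libraries moved the values of the members: with the long runs, 3 of 6 were below 0 (median −0.15) without control replicate 1, and 5 of 6 (median −0.098) without anti-GAA replicate 2. With the short runs the median was −0.044 without anti-GAA replicate 1 and −0.0056 without control replicate 2, and it was 0.39 without anti-GAA replicate 2 and 0.34 without control replicate 1. In finer classes over all tested genes, the medians were −0.04 for runs of 9 to 11 nt and −0.11 for 12 to 14 nt. They were −0.43 for 15 to 17 nt (67 genes, 82.1% below 0) and −0.39 for 18 nt or more (22 genes, 90.9% below 0). The 16 members with runs of 9 to 11 nt had a median of 0.01, 8 of them below 0. Among the 6 members with long runs, length did not order the values. DKC1 (23 nt) was at −0.16 and RRP1B (16 nt) at −0.03, while TCOF1 and NOP58 (15 nt) and DDX10 (14 nt) lay between −0.51 and −0.44. UBTF, whose run of 12 nt is made by splicing, was at 0.03. Beyond the members, 12 tested genes of the pathway lists held a run of at least 12 nt, 8 of them below 0, with a median of −0.11. That median turned to 0.051 without anti-GAA replicate 2 and to 0.0080 without control replicate 1, each with 5 of 12 below 0, and it was −0.34 without anti-GAA replicate 1 and −0.29 without control replicate 2. POLR1G (20 nt) was at 0.13 ± 0.31, and DDX54 and DDX24 (15 nt) at 0.38 ± 0.26 and 0.12 ± 0.19. DDX54 was at 0.028 without anti-GAA replicate 1 and at 0.67 without anti-GAA replicate 2. PELP1 (14 nt) was at −0.51 ± 0.24 and, without anti-GAA replicate 2 or 1, at −0.27 or −0.78. NOC3L (13 nt) was at −0.49 ± 0.35, POLR1F (14 nt) at −0.25 ± 0.38 and TBL3 (12 nt) at −0.25 ± 0.28. Each turned when 1 library was left out: NOC3L to 0.014 and TBL3 to 0.010 without control replicate 1, and POLR1F to 0.25 without anti-GAA replicate 2. RBM28, RRP1 and MPHOSPH6 (13 nt) and EXOSC9 (12 nt) lay between −0.12 and 0.04. DDX27 (18 nt) was at 52.7 and 39.3 CPM with anti-GAA and at 90.8 and 63.2 CPM with control. It had the lowest log2 fold change of the pathway, −0.75 ± 0.26 (adjusted p = 0.996). With the block edgeR called it lower (−0.74 ± 0.14, adjusted p = 0.0175), and DESeq2 with the block did not (−0.73, adjusted p = 0.0688). Without 1 library, the log2 fold change of DDX27 without the block ran from −0.47 (without control replicate 1) to −0.97 (without control replicate 2).

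**Figure D3:**
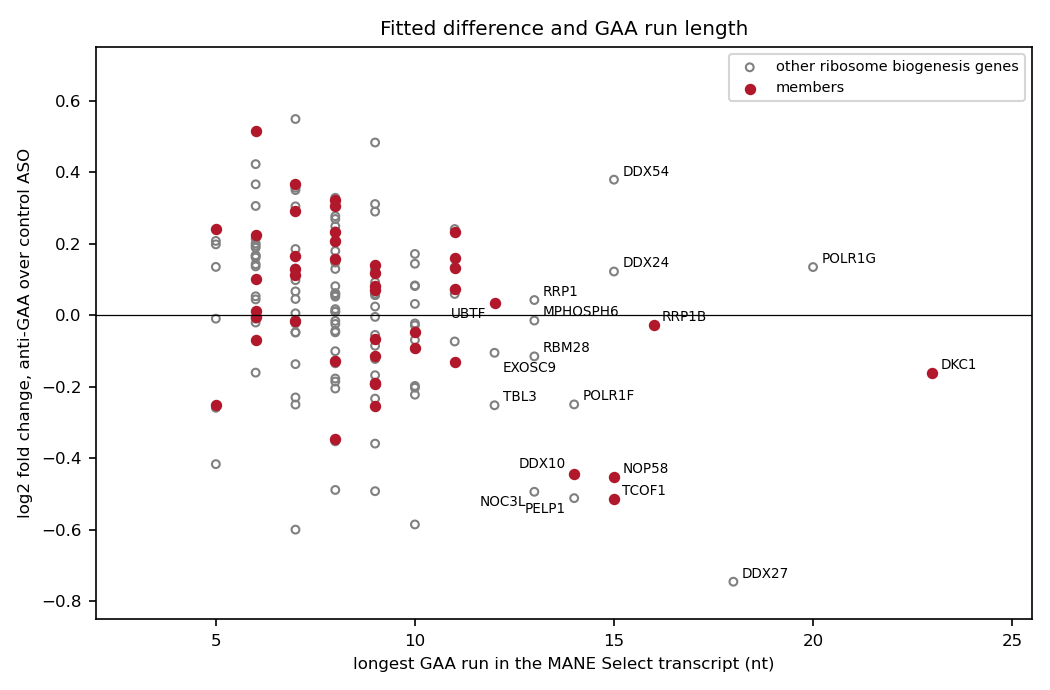
Log2 fold change (anti-GAA ASO over control ASO) against the length of the longest GAA run in the MANE Select transcript, in nt, for the 43 tested members (red) and the other tested ribosome biogenesis genes (grey circles), with names for runs of at least 12 nt. Genes with long runs lie on both sides of 0, from DDX27 (−0.75) to DDX54 (0.38, or 0.028 without anti-GAA replicate 1).

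The rest of the pathway was read from lists of 131 further genes. Of these, 3 (AATF, DDX52 and ZNHIT3) could not be matched to a single row of the count table and were not analysed here, 1 (DDX47) did not pass the filter on low counts, and 127 were tested. Without the block edgeR and DESeq2 called none. At an unadjusted p under 0.05 in edgeR, 1 was lower and 0 were higher, beside 3.46% and 1.02% of all tested genes. Of the 127, 54 (42.5%) lay below and 73 above 0, beside 48.4% below 0 over all tested genes, and the median was 0.05. With the block, edgeR called DDX27 alone of the 127, beside 1.37% of all tested genes called lower and 0.337% called higher. DESeq2 with the block did not call DDX27 (adjusted p = 0.0688). Among other processome and 40S factors the extremes were ESF1 (−0.59 ± 0.65) and NOP9 (0.55 ± 0.31), both under 9 CPM in all libraries. Among other pre-60S factors they were DDX27 and NOC2L (0.48 ± 0.50), and among other RNA polymerase I factors TAF1D (−0.49 ± 0.23), a subunit of the promoter selectivity factor, and POLR2F (0.31 ± 0.36), a subunit shared by the nuclear polymerases. The snoRNP assembly factors ran from RPAP3 (−0.35 ± 0.26) to AAR2 (0.28 ± 0.37), and the nuclear exosome from its helicase MTREX (−0.23 ± 0.21) to its cap subunit EXOSC3 (0.42 ± 0.20). Without 1 library the sign turned for ESF1 (−1.69 to 0.14), NOC2L (−0.14 to 1.07), POLR2F (−0.19 to 0.74) and AAR2 (−0.12 to 0.84). It held for NOP9 (0.43 to 0.68), TAF1D (−0.75 to −0.26), RPAP3 (−0.59 to −0.074), MTREX (−0.35 to −0.099) and EXOSC3 (0.33 to 0.53). None of these extremes other than DDX27 had an adjusted p under 0.05 in edgeR, with or without the block.

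**Figure D4:**
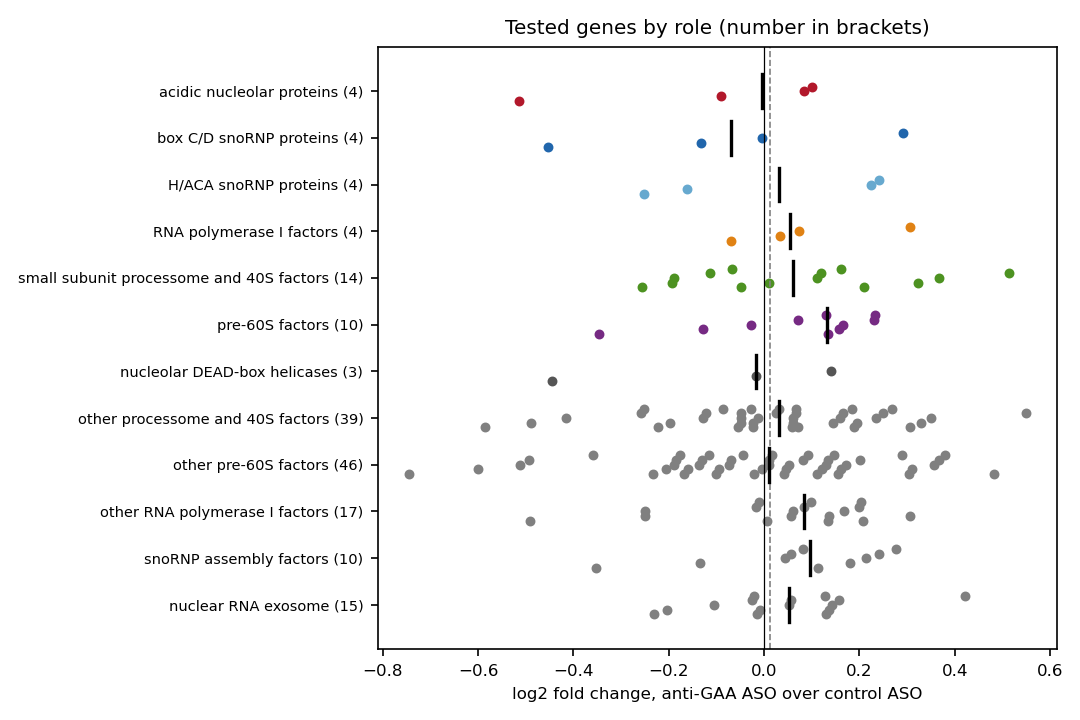
Log2 fold change (anti-GAA ASO over control ASO) of every tested gene by role, members in colour and other pathway lists in grey, with a black bar for the median of each list and a dashed line for the median of all tested genes. The medians of the member roles run from −0.07 (box C/D) to 0.13 (pre-60S).

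Regulators of the pathway were followed beside it. MYC, which activates ribosome biogenesis genes, was at 313 and 315 CPM with anti-GAA and at 273 and 251 CPM with control, or a log2 fold change of 0.26 ± 0.18 (adjusted p = 0.996). Its partner MAX differed by −0.05 ± 0.19. The ribosomal proteins RPL5 and RPL11, which bind MDM2 when ribosome assembly is disturbed, differed by 0.00 ± 0.24 and 0.15 ± 0.19. MDM2 was at 56.6 and 56.2 against 61.3 and 89.6 CPM (−0.42 ± 0.24), and CDKN1A, a cell cycle inhibitor, differed by −0.18 ± 0.24. For MDM2 a single control library stood above the rest, and the difference was −0.12 in pair 1 and −0.67 in pair 2. Without 1 library the log2 fold change of MDM2 ran from −0.68 to −0.11. CDKN2A, which encodes the MDM2 inhibitor ARF, differed by 0.22 ± 0.19. None of these regulators passed the adjusted threshold in either fit.

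Some members also share promoter letters that did not enter their choice. The letters CACGTG, the E-box bound by MYC with MAX, which read the same on both strands, were present between 250 bases before and 50 after the start of 15 of the 36 members with a promoter in the RefSeq table (41.7%, GRCh38.p14). The share was 24.1% of 112 other pathway genes and 8.77% of 27305 genes in the table. The genes of the table were not limited to those tested here, and a gene was counted if any of its promoters held the letters. A share over the tested genes alone was not computed. Of the 15 members with the letters, 10 had log2 fold changes above 0 and 5 below (median 0.12, from −0.35 for GNL2 to 0.37 for NOP14). Of the 21 without them, 12 were above 0 and 9 below (median 0.07, from −0.44 for DDX10 to 0.51 for NOB1).

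Per length, the most abundant members were NPM1, FBL and NOP56, at 979, 667 and 504 CPM per kilobase of the MANE Select transcript, and the least abundant was HEATR1 at 0.467. On the longest annotated transcript FBL (536) and SNU13 (468) were above NPM1 (358) and NOP56 (324 CPM per kilobase). Over the union of exons the order was FBL (351), SNU13 (233), NOP56 (195) and NPM1 (155). Copies and overlaps limit some of these levels: NPM1 has 49 annotated copies that took 4024 counts beside 78148 on NPM1, and NOP56P1 took 3484 counts beside 56869 on NOP56. A gene with at least 100 counts lies on the other strand across part of 15 members, among them SNU13, RRN3, NOP14, UTP4, NOP16, GNL3 and BRIX1, and since the sources used here do not name the strand setting, such reads cannot be told apart. In addition, 24 snoRNA genes lie on the same strand within 7 members, of which 16 had no counts, and the highest had 25 counts over the 4 libraries.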

How the data were processed

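Per the study's methods, trimming was done with Trimmomatic 0.38 and alignment to hg19 with STAR 2.6.1, GL contigs were dropped, and featureCounts 1.6.3 gave the sum of reads for each Ensembl gene. The values the authors deposited are these raw counts, and 0 columns were left unused. The strand setting and the handling of multi-mapping reads are not given in the sources used here. Genes kept by filterByExpr were TMM-normalized and tested with edgeR 4.0.16 (R 4.3.3, quasi-likelihood, ASO as the only term, Benjamini-Hochberg adjustment, threshold 0.05), with DESeq2 1.42.0, the method the study names, as an alternative. Pairs were compared on log2 CPM (prior count 2). Lists are described by counts and medians, with no test. The fits were tested on simulated counts, with 100 genes changed by 1 and 100 by 2 in log2. The fit without a block made no adjusted call on these changed genes, so its lack of calls does not show that genes did not differ. The fit with the block called 96% and 100% of them, and 0.15% of unchanged genes. The simulation gave both conditions the same difference between replicates, which is what the block assumes. It also drew less spread between libraries than the fit with the block estimated here (common dispersion 0.0148), and no changed gene was of low abundance. It therefore does not show how well the fit with the block performs on these libraries. Changes smaller than 1 in log2 were not simulated. Positions, transcripts and sequences came from GENCODE 44 on GRCh38, joined by Ensembl identifier, with none carried over from hg19, and promoters from RefSeq. The ASO sequence came from the study's supplement.

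The members and lists were chosen with earlier results of these data known. Full values are given for acidic, box C/D, H/ACA and RNA polymerase I members. In other roles they are given for the lowest and highest members, those under 0.05 (unadjusted p, or adjusted p with the block) and those whose longest transcript holds 9 nt or more of GAA repeat. In other lists the extremes, called genes and the regulators are given, except 1 that is not reported here, and genes with a MANE Select run of at least 12 nt were added after their values were seen, as were the MANE Select transcript and DESeq2 with the block as alternatives and the medians by GAA run under each alternative.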

Additional observations from a re-analysis of the deposited data

How the results depend on the processing

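No member was called in any alternative fit. Over the genes that each fit tested, the count called lower (0) became 5 with DESeq2 and 111 with no filter. It was 207 with the replicate block, 336 with the block and length and GC offsets and 40 with DESeq2 and the block. The count called higher (0) became 5 with no filter, 51 with the block, 114 with the block and offsets and 11 with DESeq2 and the block. The fit with no filter tested every gene with any count, a larger set than the others. Leaving out a library gave 0 to 16 lower (16 without control replicate 1) and 0 to 3 higher (3 without anti-GAA replicate 2), each time with the lone library assumed to vary like the others. DDX27 was called lower only with the replicate block (adjusted p = 0.0175) and with the block and offsets (0.00621), 1 gene of the other lists in each, while DESeq2 with the block gave a log2 fold change of −0.73 (adjusted p = 0.0688), and KRT18 was called lower with the block and offsets (−0.59, adjusted p = 0.0446) but not with the block alone (0.0853). The block changed no other call among the genes named.

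The replicate number was not shown to pair the libraries, since the labels do not say what it marks and 2 pairs are too few to judge (correlation of deviations of equal-numbered libraries 0.56). With the block, unadjusted p was under 0.05 for 3 members with lower and 3 with higher values, with the block and offsets 4 and 4, against 0 and 1 without it. UTP18 was not under it with the block and offsets (log2 fold change 0.24, unadjusted p = 0.0897). With DESeq2 and the block, neither UTP18 (0.33, unadjusted p = 0.0799) nor NOP14 (0.36, unadjusted p = 0.117) was under it. The count lower was 2 with DESeq2 and the block, with no filter and with scaling to totals, which left 0 higher. Without 1 library, 0 to 2 were lower and 0 to 1 higher.

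The median of the members (0.072) was −0.023 with scaling to totals, and −0.11 (without control replicate 2) to 0.26 (without control replicate 1) when 1 library was left out. Scaling to totals gave medians of −0.097 for the acidic proteins, −0.16 for box C/D, −0.038 for RNA polymerase I factors, −0.032 for the processome, 0.037 for pre-60S factors and −0.11 for the helicases. Length and GC offsets gave 0.096 for pre-60S factors without the block and 0.094 with it, and −0.0041 for the helicases, which were at −0.029 with no filter. Without 1 library the medians ran from −0.074 to 0.0041 (acidic), −0.33 to 0.16 (box C/D), −0.21 to 0.30 (H/ACA), −0.017 to 0.22 (RNA polymerase I), −0.11 to 0.32 (processome), −0.044 to 0.31 (pre-60S) and −0.21 to 0.12 (helicases). Those of the other lists ran from −0.18 to 0.23 (processome and 40S), −0.24 to 0.20 (pre-60S), −0.19 to 0.25 (RNA polymerase I), −0.063 to 0.15 (snoRNP assembly) and −0.12 to 0.26 (exosome).

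Of the 77 genes named with a tested value, 33 kept their sign in every alternative, NOB1, TCOF1, NOP58, DDX10 and DDX27 among them. Scaling to totals turned BRIX1 (−0.023), RRP9 (−0.083), NOLC1 (−0.012), POLR1B (−0.020), RPL5 (−0.093), RRP1 (−0.049) and UBTF (−0.055). RPL5 was also at −0.015 with length and GC offsets, −0.0084 under the filter of 1 CPM on average and −0.0084 with no filter, SNU13 at 0.0058 with DESeq2, 0.0057 with its size factors and 0.0042 with DESeq2 and the block, RRP9 at −0.018 with the offsets, −0.0018 with no filter and −0.016 with the block and offsets, and HEATR1 at 0.059 with the block and offsets. Leaving out 1 library turned 42 genes, which ranged as follows. Among members, the ranges were −0.36 to 0.074 for DKC1, −0.21 to 0.61 for DDX18, −0.19 to 0.61 for GAR1, −0.64 to 0.021 for GNL2, −0.41 to 0.38 for HEATR1, −0.57 to 0.15 for NHP2, −0.027 to 0.19 for NOLC1, −0.36 to 0.072 for NOP56, −0.0093 to 0.21 for NPM1 and −0.055 to 0.31 for PES1. They were −0.56 to 0.30 for RRP12, −0.19 to 0.16 for RRP1B, −0.30 to 0.30 for SNU13, −0.25 to 0.40 for UBTF, −0.41 to 0.29 for UTP14A, −0.033 to 0.39 for UTP15, −0.61 to 0.076 for UTP20, −0.29 to 0.050 for UTP3, −0.069 to 0.34 for WDR43 and −0.51 to 0.22 for WDR75. For the other members they were −0.16 to 0.12 for DDX21, −0.31 to 0.084 for GNL3, −0.16 to 0.44 for NAT10, −0.13 to 0.48 for NIP7, −0.31 to 0.61 for NOP16, −0.33 to 0.54 for PPAN, −0.29 to 0.27 for RRP9 and −0.016 to 0.41 for UTP4. Among other genes they were −0.12 to 0.84 for AAR2, −0.45 to 0.064 for CDKN1A, −1.69 to 0.14 for ESF1, −0.32 to 0.15 for EXOSC9, −0.11 to 0.011 for MAX, −0.14 to 1.07 for NOC2L, −0.86 to 0.014 for NOC3L and −0.98 to 0.25 for POLR1F. For POLR1G they were −0.16 to 0.41, for POLR2F −0.19 to 0.74, for RBM28 −0.36 to 0.11, for RPL5 −0.21 to 0.25, for RRP1 −0.29 to 0.45 and for TBL3 −0.54 to 0.010. Without a change of sign, leaving out 1 library moved, for example, UTP18 (0.20 to 0.45), NOP14 (0.14 to 0.58), DDX27 (−0.97 to −0.47), DDX54 (0.028 to 0.67), PELP1 (−0.78 to −0.27), NOP58 (−0.75 to −0.20), DDX10 (−0.66 to −0.25), FBL (0.044 to 0.56), NOP10 (0.028 to 0.45) and MDM2 (−0.68 to −0.11) by over 1.5 times. The causes were not tested. The median of the members with a GAA run under 9 nt (0.16) was 0.17 with DESeq2, 0.13 with length and GC offsets with or without the block and 0.060 with scaling to totals, and −0.044 to 0.39 without 1 library. That of the 6 with at least 12 nt (−0.30) was −0.40 with scaling to totals and −0.43 to −0.098 without 1 library. For the 12 other pathway genes with such a run, the median (−0.11) was −0.045 with length and GC offsets, −0.050 with the block and offsets and −0.21 with scaling to totals. A GAA run of at least 12 nt was held by 5 members on the longest transcript, 6 on MANE Select and 7 over the gene body, and runs of at least 9 and 15 nt by 20 and 3 on the longest transcript and by 22 and 4 on MANE Select.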
